A study of Mus musculus with 6 samples.

Results

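The replication-dependent histone genes were examined in ATAC-seq of mouse leukemia cells, an assay in which the enzyme Tn5 cuts accessible DNA and tags its ends, so that sequenced tags pile up into peaks where chromatin is open. A peak was taken as a histone peak where the gene assigned to it in the deposited annotation had a name beginning with Hist1h, Hist2h, Hist3h or Hist4h and its centre lay no more than 3000 bp from that gene's transcription start site (TSS). This rule, which uses names and distances and no measured value, found 317 peaks of 62 genes, out of 175929 peaks in all and 53478 within 3000 bp of a TSS. A further 259 peaks assigned to histone genes lay farther away and were not members. All 6 libraries came from Usp18+/f AE9a leukemia cells, which carry the leukemogenic AE9a form of the AML1/ETO fusion, 1 floxed Usp18 allele, and a Cre recombinase that needs tamoxifen to enter the nucleus. The cells were grown in recipient mice, which were injected with oil (replicates 1, 2 and 4) or tamoxifen (replicates 1, 3 and 4) once ill, and GFP-positive Lin- c-Kit+ cells were sorted from the spleen at day 3 of the injections. The oil group thus remained Usp18+/f, and in the tamoxifen group 1 Usp18 allele was to be deleted while the other was kept. Only the second group received tamoxifen, so that the drug and the allele loss cannot be told apart. The sources differ on whether each library stems from a mouse of its own: the description of RNA preparation names a number of mice equal to the libraries of a group, for sorted material shared with ATAC-seq, while the statement on ATAC-seq replicates gives fewer. The spread between libraries may therefore in part be technical.

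Histones are the proteins around which DNA is wound: H2A, H2B, H3 and H4 form the nucleosome core, and H1, the linker histone, binds where DNA enters and leaves it. The replication-dependent genes exist in many copies that lie together in clusters, have mostly no introns, and make mRNAs that end in a stem-loop instead of a poly(A) tail. They are transcribed in S phase, when new DNA must be packed, under the coactivator NPAT, and many H2A and H2B genes sit head to head and share the stretch of DNA between their starts. The study removed Usp18, which takes the ubiquitin-like protein ISG15 off its targets and restrains interferon signalling, and asked what changes in leukemia cells. Here the question is how open the histone genes were in these cells and whether that differed between the oil and the tamoxifen libraries.

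By class, the members comprised 34 peaks of 6 H1 genes, 56 peaks of 16 H2A genes, 81 peaks of 16 H2B genes, 67 peaks of 12 H3 genes and 79 peaks of 12 H4 genes. On the mm10 build they lay in 7 blocks, the largest on chromosome 13 (chr13:23529102-23766455, with 162 peaks of 29 genes). The deposited annotation placed 102 peaks at promoter-TSS, 74 at transcription ends, 11 in exons, 10 in introns, 5 in 3′ UTRs, 1 in a non-coding transcript and 114 in intergenic DNA. The genes are short, with a median length of 492.5 bp in RefSeq, so a peak shortly past the start often lies past the end of the gene. Of 70 histone genes in RefSeq, 8 had no member peak. Among these were the testis-type genes Hist1h2aa and Hist1h2ba, and Hist1h2ao, Hist1h2ap, Hist1h2bq and Hist1h2br, whose whole sequence (100% of their 50-base stretches) recurs elsewhere in the histone blocks, so that reads from them cannot be placed at 1 copy. Histone peaks held less G and C than other peaks near a TSS, with a median of 44.1% against 54.1% for all peaks within 3000 bp.

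The sequences around the starts show how alike the genes are within a class and how they differ between classes. RefSeq start windows on GRCm38.p6, the assembly of mm10, which run from 250 bases before to 50 bases after the TSS, were found for 55 of the 62 genes (56 windows, since Hist1h2be has 2 starts), and a histone peak covered part of the window in 54 of the 55. The windows of the gene with the highest start-site level in each class are printed because the levels below turn on them, and those of Hist1h2be, Hist1h1a and Hist1h2an because peaks of these genes were among the 5 with the largest falls at a mean of at least 30 normalised tags. Of Hist2h2be, whose peak fell most among these 5, no window was used here. Capitals mark 4 short motifs searched on both strands: the CCAAT box (CCAAT or ATTGG), the TATA box (TATAAA or TTTATA), the octamer (ATTTGCAT or ATGCAAAT) and the core of a site found in H4 promoters (GGTCCG or CGGACC). No motif overlapped another in these windows.
Hist1h1c, H1, chr13:23738557-23738856, plus strand: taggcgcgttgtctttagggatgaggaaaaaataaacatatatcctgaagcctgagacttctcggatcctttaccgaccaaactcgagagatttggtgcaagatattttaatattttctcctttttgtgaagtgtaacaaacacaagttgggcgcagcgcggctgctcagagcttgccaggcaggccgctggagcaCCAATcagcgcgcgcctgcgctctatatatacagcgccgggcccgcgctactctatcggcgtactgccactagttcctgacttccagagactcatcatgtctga
Hist2h2ac, H2A, chr3:96220831-96221130, minus strand: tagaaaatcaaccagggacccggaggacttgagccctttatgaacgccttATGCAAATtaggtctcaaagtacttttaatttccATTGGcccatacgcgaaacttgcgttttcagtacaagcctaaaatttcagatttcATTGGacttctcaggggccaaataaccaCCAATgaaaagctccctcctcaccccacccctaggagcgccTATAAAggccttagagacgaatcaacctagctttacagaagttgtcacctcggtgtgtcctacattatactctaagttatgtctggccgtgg
Hist1h2bk, H2B, chr13:22035571-22035870, plus strand: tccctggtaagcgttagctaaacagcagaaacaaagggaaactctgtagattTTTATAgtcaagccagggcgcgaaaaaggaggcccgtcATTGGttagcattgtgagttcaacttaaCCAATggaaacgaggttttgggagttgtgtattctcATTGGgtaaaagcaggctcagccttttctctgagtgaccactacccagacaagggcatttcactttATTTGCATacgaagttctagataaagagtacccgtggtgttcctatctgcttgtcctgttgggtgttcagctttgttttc
Hist1h3g, H3, chr13:23535168-23535467, plus strand: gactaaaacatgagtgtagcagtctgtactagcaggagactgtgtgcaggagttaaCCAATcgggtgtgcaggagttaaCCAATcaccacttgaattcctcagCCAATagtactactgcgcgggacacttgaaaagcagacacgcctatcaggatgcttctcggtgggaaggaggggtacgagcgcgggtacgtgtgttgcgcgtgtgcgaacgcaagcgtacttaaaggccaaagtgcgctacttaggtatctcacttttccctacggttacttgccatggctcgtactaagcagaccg
Hist1h4c, H4, chr13:23698409-23698708, minus strand: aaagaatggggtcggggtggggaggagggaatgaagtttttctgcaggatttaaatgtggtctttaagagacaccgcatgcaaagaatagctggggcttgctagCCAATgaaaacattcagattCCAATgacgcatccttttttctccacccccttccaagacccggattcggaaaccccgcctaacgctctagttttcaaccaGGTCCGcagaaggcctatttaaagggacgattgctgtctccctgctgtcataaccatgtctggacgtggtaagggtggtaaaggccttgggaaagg
Hist1h2be, H2B, chr13:23585921-23586220, minus strand: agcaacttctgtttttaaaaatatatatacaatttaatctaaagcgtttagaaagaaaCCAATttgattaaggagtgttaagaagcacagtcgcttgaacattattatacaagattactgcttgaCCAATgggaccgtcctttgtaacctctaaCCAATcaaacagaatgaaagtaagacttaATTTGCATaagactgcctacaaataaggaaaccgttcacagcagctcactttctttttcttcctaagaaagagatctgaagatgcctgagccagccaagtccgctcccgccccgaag
Hist1h1a, H1, chr13:23763418-23763717, plus strand: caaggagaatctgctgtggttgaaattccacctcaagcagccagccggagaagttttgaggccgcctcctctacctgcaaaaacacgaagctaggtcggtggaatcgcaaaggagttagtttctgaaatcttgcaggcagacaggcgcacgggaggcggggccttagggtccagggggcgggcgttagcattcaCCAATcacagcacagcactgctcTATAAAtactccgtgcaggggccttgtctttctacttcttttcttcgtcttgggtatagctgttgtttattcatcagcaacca
Hist1h2an, H2A, chr13:21787199-21787498, minus strand: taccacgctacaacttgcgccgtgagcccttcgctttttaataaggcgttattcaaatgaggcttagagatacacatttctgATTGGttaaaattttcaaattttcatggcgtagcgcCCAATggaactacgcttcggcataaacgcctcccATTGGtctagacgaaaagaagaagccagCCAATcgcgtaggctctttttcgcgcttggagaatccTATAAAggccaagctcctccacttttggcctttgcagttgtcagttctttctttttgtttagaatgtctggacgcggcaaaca

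A CCAAT box was present in 48 of the 56 histone windows (85.7%), against 37.3% of the 32795 windows of all other genes. It was in every H1, H2A, H2B and H3 window and in 3 of the 11 H4 windows (27.3%). The H4 motif GGTCCG went the other way, with 10 of 11 H4 windows (90.9%), 1 H2B window and 1 H3 window, against 8.23% of other windows; in the printed Hist1h4c window it starts 46 bases before the TSS. The octamer, the site of OCT1, was in 6 of 15 H2A windows and 6 of 14 H2B windows and in none (0) of the H1, H3 and H4 windows, against 1.70% of others. TATAAA was in 32 histone windows (57.1%) and in 13.5% of others. These matches describe letters in a window and are not evidence of binding.

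The starts of histone genes were open in all 6 libraries. The level of a peak is given as tags per kb of peak per 1000000 tags in peaks, so that peaks of unlike width and libraries of unlike depth can be set side by side. Over the peak nearest the TSS of each of the 62 genes, the median level was 104.6, against 69.4 for the nearest peak of 15826 other genes. A nearest peak may lie up to 3000 bp from the start. Over peaks within 300 bp of a start the median was 114.3 for histone peaks and 84.9 for other peaks. Among the nearest peaks of the 62 genes, that of the H4 gene Hist1h4c had the highest level (165.6). Its normalised tags, that is tags divided by the size factor of the library, were 731, 704 and 667 in the oil and 688, 755 and 670 in the tamoxifen libraries, so that the groups overlapped. Close to it were Hist2h2ac (H2A, 163.6), Hist1h2bk (H2B, 160.9), the linker histone gene Hist1h1c (158.7) and Hist1h3g (H3, 154.5). The order of these 5 genes does not hold in each library: Hist2h2ac was above Hist1h4c in 3 of them, by most in tamoxifen replicate 4 (169 against 159). The median level by class lay between 95.8 for H2A and 123.0 for H4, and the classes overlapped along nearly their whole range.

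**Figure D1:**
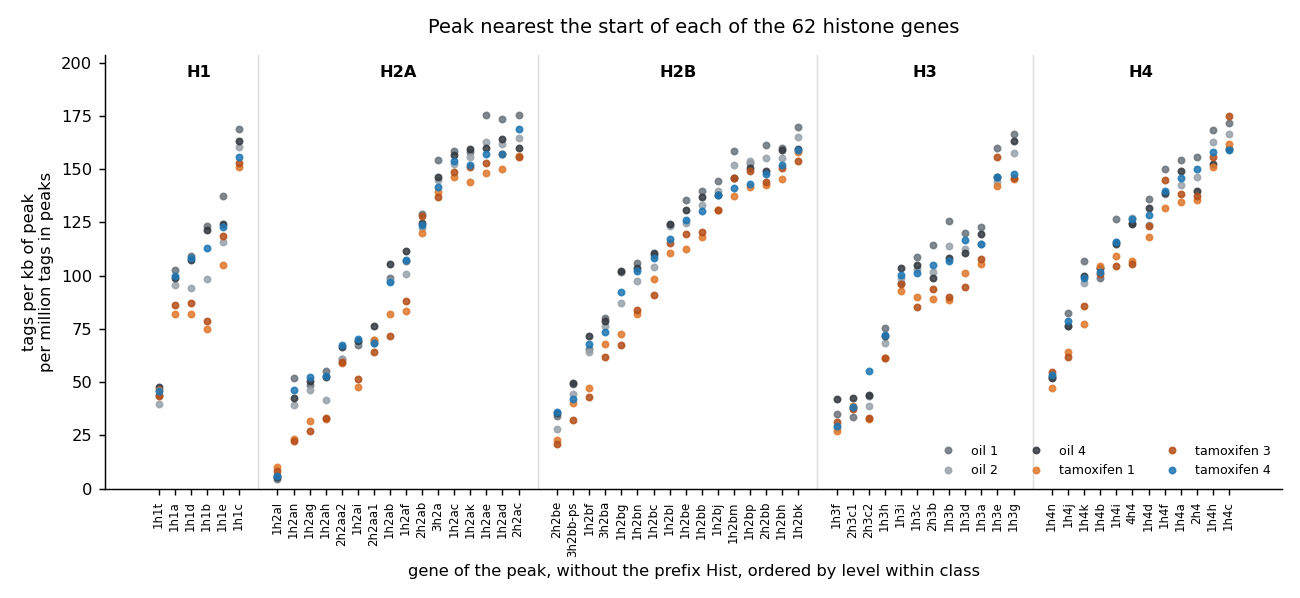
Level of the peak nearest the start of each of the 62 histone genes (tags per kb of peak per 1000000 tags in peaks, linear axis from 0), 1 point per library, genes ordered by mean level within the classes H1, H2A, H2B, H3 and H4. The means run from 6.83 at Hist1h2al to 165.6 at Hist1h4c, and the points of tamoxifen replicates 1 and 3 tend to lie at the lower edge of each column.

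The low end held members of different kinds. Hist1h2al, an H2A pseudogene by RefSeq and GENCODE that lies alone on chromosome 13, was barely open (6.83), with 18.8, 25.4 and 21.5 normalised tags in oil and 40.6, 34.5 and 23.3 in tamoxifen; 68.8% of the 50-base stretches of this peak recur in the histone blocks, and its value is uncertain for that reason. The testis-type linker histone gene Hist1h1t, which is normally used in male germ cells, had an open start (44.5), lowest of the 6 H1 genes, with 192, 174 and 204 normalised tags in oil and 203, 192 and 199 in tamoxifen. Hist1h3f (32.2) was lowest among H3 genes and Hist1h4n (52.0) among H4 genes, the latter with 73.2% of its stretches shared with other copies. Hist2h2be (29.6) was lowest among H2B genes, but its nearest assigned peak lay 894 bp past its start, in its 3′ UTR. In 12 genes the nearest assigned peak was 300 bp or more away, and in 11 of them the start itself lay under a peak assigned to another histone gene, mostly the head-to-head partner. Thus the start of Hist2h2be lay under the peak of Hist2h2ac, and that of Hist1h2an under the peak of Hist1h2bp (148.5). The levels of these 12 genes had a median of 52.3, against 119.1 for the other 50. In 11 of them they are those of downstream peaks. In Hist1h4a the level is that of a peak at position -313 bp (144.1).

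The libraries were sequenced to similar depth, with 57.4 to 74.7 M tags in all (M stands for 1000000), of which 28.2 to 30.5% fell in peaks. Tamoxifen replicate 4 stood apart from its group. The chi-square per degree of freedom between it and tamoxifen replicates 1 and 3 was 6.95 and 6.03 over the histone peaks, and 2.66 and 2.68 over all peaks, where counting error alone gives about 1. The other pairs within a group gave 1.31 to 1.72 over the histone peaks and 1.04 to 1.49 over all peaks. This measure grows with the tags in a peak. The median histone peak held 152 to 260.5 tags per library, and the median of all peaks 45 to 57. The values for histone peaks and for all peaks are therefore not a like comparison. Tamoxifen replicate 4 did not stand apart in depth (69.4 M tags) or in the share of tags in peaks (29.5%), and nothing in the labels sets it aside. Results below are therefore given with and without it. At the targeted gene itself, the peak at the Usp18 start had 459, 415 and 440 normalised tags in oil and 441, 468 and 438 in tamoxifen; the position of the floxed part is not given in the sources used here, so that this peak is no check of the deletion.

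Tags in histone peaks did not separate the groups. Per 1000000 tags in peaks, the 317 peaks held 4992, 4541 and 4968 tags in oil replicates 1, 2 and 4, and 3987, 4103 and 5152 in tamoxifen replicates 1, 3 and 4. Tamoxifen replicates 1 and 3 were thus below all oil libraries and tamoxifen replicate 4 above them all. The tamoxifen mean was 4414 ± 642 (SD, n = 3) and the oil mean 4834 ± 254 (SD, n = 3), a difference of -8.68%, within the spread between tamoxifen libraries. Without tamoxifen replicate 4 it was -16.3%. In each of the 5 classes tamoxifen replicates 1 and 3 were likewise below the oil libraries. In H3, for example, the values were 970, 858 and 973 in oil and 744, 794 and 1037 in tamoxifen. Of the 317 peaks, 257 were below the oil range in tamoxifen replicate 1 and 207 in tamoxifen replicate 3, but 40 in tamoxifen replicate 4, where 156 were above it. These were 81.1%, 65.3% and 12.6% below and 49.2% above, where among all peaks 32.1%, 34.2% and 27.9% were below and 29.2% above.

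**Figure D2:**
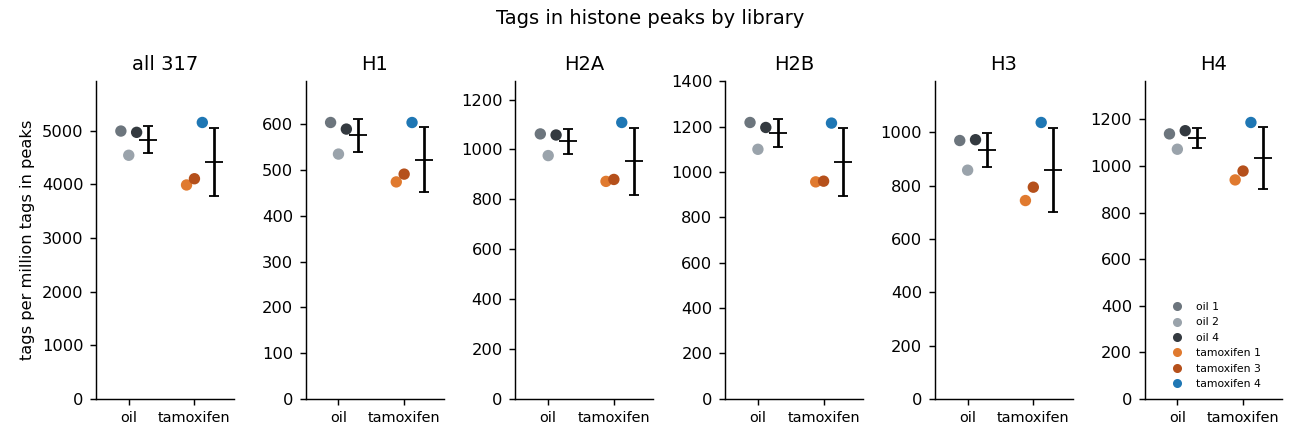
Tags per 1000000 tags in peaks (linear axes from 0) in all 317 histone peaks and in those of each class, 1 point per library, with the mean and SD of the 3 libraries of each group as a bar beside the points. Tamoxifen replicates 1 and 3 lie below the oil libraries in every panel, and tamoxifen replicate 4 lies with or above them.

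No histone peak passed the test between tamoxifen and oil. With DESeq2 fitted over all peaks, 0 of 317 had an adjusted p under 0.05 in either direction, where 1.39% of all peaks did, and 0 met the study's rule of a fold over 2 in addition, where 0.654% of all peaks did. edgeR also called 0. At an unadjusted p under 0.05, DESeq2 gave 29 lower peaks (9.15%) and 0 higher ones, against 2.84% lower and 6.18% higher among all peaks, and edgeR gave 43 lower (13.6%) and 3 higher (0.946%), against 7.09% lower and 10.5% higher among all peaks. The median log2 difference (tamoxifen over oil) was -0.11 over the histone peaks, with 244 of 317 below 0, against -0.0013 over all peaks and -0.014 over the other peaks within 3000 bp. In 28 histone peaks (8.83%) every tamoxifen library was below every oil library, close to the 9.99% of all peaks, and in 1 peak, at a start of the duplicated Hist2h3c1, every tamoxifen library was above, against 11.8% of all peaks. The smallest adjusted p, 0.198, belonged to a peak inside the H2A gene Hist1h2ak (chr13:21753232-21753548), with 686, 610 and 693 normalised tags in oil and 510, 443 and 642 in tamoxifen. There the highest tamoxifen library lay within the oil range.

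The classes were alike in this. The median log2 difference was -0.10 for H1, -0.08 for H2A, -0.15 for H2B, -0.14 for H3 and -0.09 for H4, each smaller than the pooled SD of the library medians over all histone peaks (0.17). At the peak nearest the start, 57 of 62 genes were below 0 with a median of -0.10, whereas the nearest peaks of other genes had a median of 0.014. In 14 of these 62 (22.6%) every tamoxifen library, replicate 4 included, was below every oil library, against 5.67% of the nearest peaks of other genes. Among them were Hist1h1c (655, 616 and 619 in oil against 583, 599 and 598 normalised tags in tamoxifen; log2 -0.09 ± 0.09 SE, adjusted p = 0.902) and Hist1h3g (646, 607 and 620 against 562, 573 and 568; -0.14 ± 0.09 SE, adjusted p = 0.726). These differences are small: the groups do not overlap, yet neither passed the test. Among the 12 H4 genes, whose nearest peaks had a median of -0.06, 0 had groups that did not overlap.

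The libraries parted away from the start sites. Within 300 bp of the start the median log2 over the oil mean was -0.13, -0.07 and -0.03 in tamoxifen replicates 1, 3 and 4 (57 peaks). From 300 to 1000 bp past the start, over 65 peaks, it was -0.39, -0.45 and 0.04, and from 1000 to 3000 bp, over 123 peaks, -0.38, -0.21 and 0.30. Within 300 bp of the start the oil libraries spread about as far as the tamoxifen libraries, from -0.04 to 0.06. In the ranges past the start the oil libraries spread far less, from -0.14 to 0.08. The medians of other genes did not part in this way: over 8998 other peaks from 300 to 1000 bp past a start the same values were -0.03, -0.03 and -0.04. In the fit of all libraries, 64 of the 65 histone peaks in this range were below 0, with a median of -0.23, and 15 had an unadjusted p under 0.05. The other peaks in the range had a median of -0.03, and 2.43% of them were lower at that p. The deposited tags are capped at 3 per position. Histone peaks within 300 bp of a start had the highest median level, 114.3, against 61.3 and 25.3 in the ranges past it. Whether the cap makes the libraries look more alike at starts was not tested. In 62 histone peaks some 50-base stretches recur elsewhere in the histone blocks. Their median log2 difference was -0.16 (90.3% below 0), against -0.10 (73.7% below 0) in the 255 histone peaks without such stretches. The part of shared stretches in these values was not tested.

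**Figure D3:**
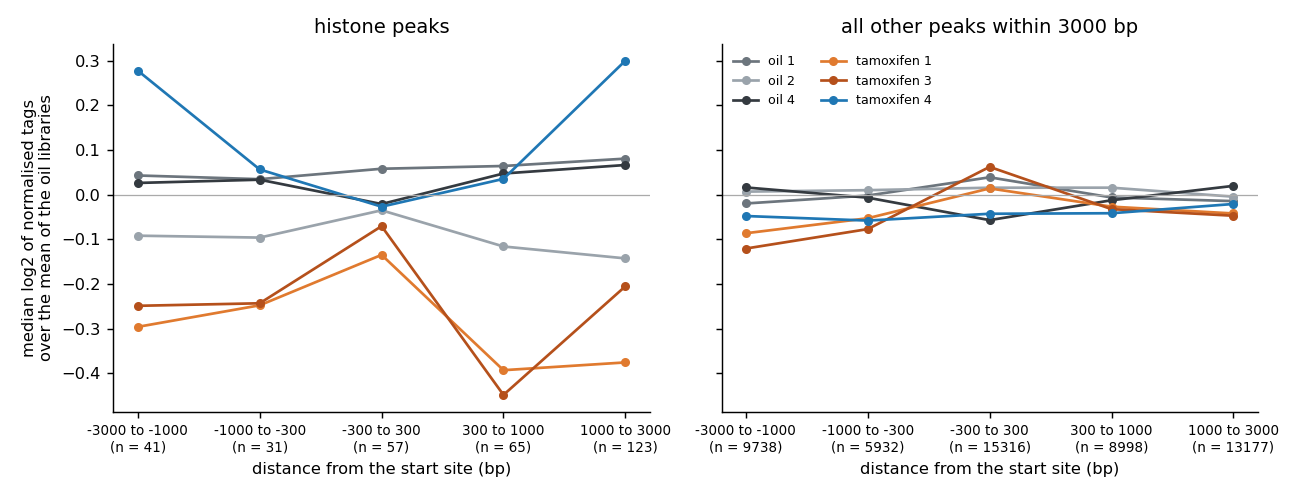
Median log2 of normalised tags over the mean of the oil libraries (linear axis in log2 units) by distance from the start site in bp, negative before the start, for histone peaks (left) and all other peaks within 3000 bp (right), 1 line per library. At histone genes the libraries are closest within 300 bp of the start and part on either side, tamoxifen replicates 1 and 3 below and tamoxifen replicate 4 at or above the oil libraries, while the lines of other peaks stay between -0.12 and 0.06.

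The peaks were also placed by the gene bodies in RefSeq. Of the 62 genes 57 are under 1000 bp long, but Hist1h2be spans 37455 bp, Hist1h2bp 14079 bp and Hist1h2bc 8282 bp. Peaks inside a gene therefore include intron peaks within these long spans. Over the 46 peaks within 500 bp past the end of a histone gene the median log2 difference was -0.20 (44 below 0), over the 66 inside a gene -0.17 (57 below 0), over the 43 within 500 bp before a start -0.09 (36 below 0) and over the 162 elsewhere -0.07 (107 below 0). By library, the medians over the oil mean in tamoxifen replicates 1, 3 and 4 were -0.36, -0.39 and 0.05 past the end, -0.32, -0.26 and 0.01 inside, -0.15, -0.07 and -0.02 before the start, and -0.34, -0.20 and 0.27 elsewhere. The difference elsewhere is thus a mean of libraries that lay on opposite sides of the oil mean. The head-to-head genes Hist1h2an and Hist1h2bp show the start and the end at a single locus. Their shared start peak (chr13:21787245-21787466) had 655, 653 and 632 normalised tags in oil and 604, 646 and 605 in tamoxifen, a log2 difference of -0.06. The peak past the end of Hist1h2an (chr13:21786154-21786580) had 426, 322 and 344 in oil and 191, 185 and 377 in tamoxifen. There tamoxifen replicates 1 and 3 lay far below the oil libraries and replicate 4 among them, and the log2 difference was -0.53 ± 0.36 SE (adjusted p = 0.764).

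Without tamoxifen replicate 4, DESeq2 called 61 of 317 histone peaks lower (19.2%) and 0 higher, where 1.43% of all peaks were called lower and 2.29% higher in that fit. Leaving out any of the other 5 libraries left the count at 0. These shares are at unlike depth, since an equal fold is called more readily where there are more tags. The median was 201.6 normalised tags over the histone peaks and 50.5 over all peaks. From 300 to 1000 bp past a start it was 309.7 for histone peaks and 97.5 for other peaks. The same limit holds for the shares at an unadjusted p given above. The 61 peaks belonged to 32 genes and had a median log2 difference of -0.58. By class they were 6 of 34 H1 peaks, 14 of 56 H2A peaks, 20 of 81 H2B peaks, 12 of 67 H3 peaks and 9 of 79 H4 peaks. Of the 65 peaks from 300 to 1000 bp past a start 30 were called (46.2%), against 4 of 57 within 300 bp of a start (7.02%); among other peaks in these 2 ranges 1.81% and 2.74% were called in either direction. In 58 of the 61, tamoxifen replicate 4 lay inside or above the oil range, and in 26 of them above it. This fit keeps 2 tamoxifen libraries that were alike at these peaks and leaves out the library that was not, and there is no ground in the labels or in the depth for doing so. The calls therefore describe tamoxifen replicates 1 and 3 and not the group.

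The 6 peaks with the smallest adjusted p in that fit, chosen after their values were seen, include 2 linker histone genes. Inside Hist1h1b (chr13:21780173-21780526) there were 843, 665 and 812 normalised tags in oil and 511, 543 and 763 in tamoxifen. Inside Hist1h1d (chr13:23555560-23555852) there were 585, 433 and 545 in oil and 319, 339 and 510 in tamoxifen. In both, tamoxifen replicates 1 and 3 were below every oil library and replicate 4 within the oil range. Past the end of the H2A gene Hist1h2ae (chr13:23570245-23570598) the values were 327, 291 and 317 in oil and 180, 165 and 328 in tamoxifen. Past the end of Hist1h2bf, an H2B gene, they were 441, 388 and 420 against 282, 252 and 443, and 1174 bp past the start of Hist1h3d 674, 539 and 631 against 414, 392 and 710. In these 3 peaks tamoxifen replicate 4 was the highest of all 6 libraries. The start peak of Hist1h2ae had 841, 772 and 749 in oil and 708, 740 and 745 in tamoxifen, a log2 difference of -0.11, against -0.47 past its end.

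**Figure D4:**
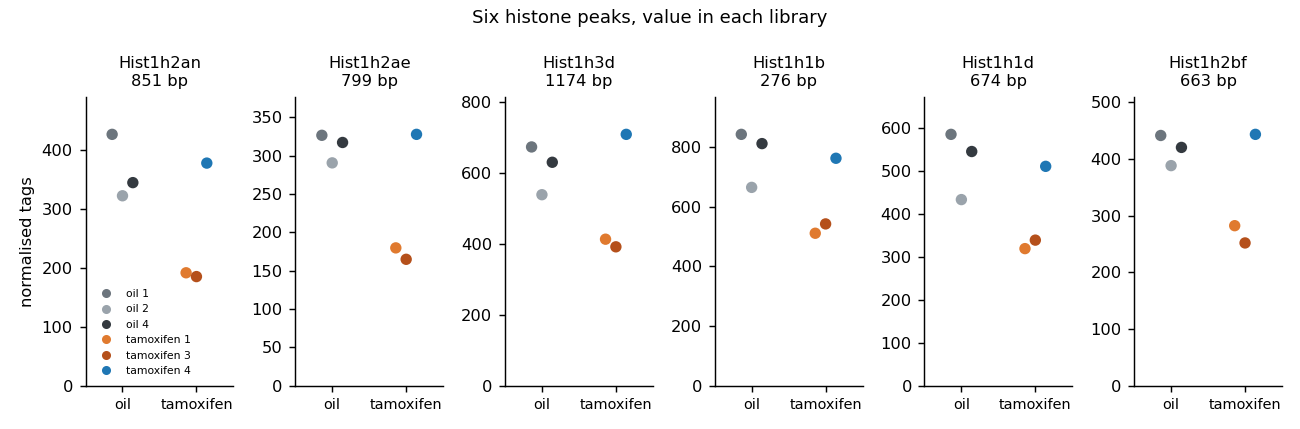
Normalised tags (linear axes from 0) in each library at the 6 histone peaks with the smallest adjusted p in the fit without tamoxifen replicate 4, with the gene and the distance past its start in bp above each panel. Tamoxifen replicates 1 and 3 lie below the oil libraries in every panel, and tamoxifen replicate 4 lies among or above them.

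In that fit 2 peaks were lower by more than 2-fold (0.435% of all peaks were): the 3′ UTR peak of Hist2h2be (log2 -1.18, adjusted p = 0.00815) and a peak 2845 bp past the start of Hist1h2ah (-1.05, adjusted p = 0.000677). The first was also the largest fitted fall over all 6 libraries among peaks with a mean of at least 30 normalised tags. Hist2h2be, an H2B gene that also yields a longer, polyadenylated transcript, had at this peak (chr3:96222778-96223140) 83.8, 56.6 and 77.1 normalised tags in oil and 34.8, 29.0 and 70.8 in tamoxifen, with a log2 difference of -0.68 ± 0.30 SE (adjusted p = 0.414). The next, an intron peak of Hist1h2be (chr13:23588460-23588748), had 32.0, 48.8 and 48.4 against 36.7, 20.1 and 24.2 (-0.67 ± 0.34 SE, adjusted p = 0.550), and here it was tamoxifen replicate 1 that lay in the oil range. A peak 2671 bp past the start of Hist1h1a (chr13:23766223-23766455) had 104, 86.8 and 104 against 63.8, 53.5 and 81.9 (-0.56 ± 0.22 SE, adjusted p = 0.293). In this peak the groups did not overlap. A Hist3 peak, left out by its mean under 30 normalised tags, had a larger fitted fall over all 6 libraries (log2 -0.79).

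Among peaks with a mean of at least 30 normalised tags, the 5 largest positive differences were smaller. Of these 5 peaks 0 lay at a start or had groups that did not overlap. They were 2 intergenic peaks of Hist1h3e (log2 0.34, adjusted p = 0.593, and 0.27, adjusted p = 0.631), an intergenic peak of Hist2h4 (0.29, adjusted p = 0.856), a peak before the start of Hist1h1t (0.28, adjusted p = 0.718) and an intergenic peak of Hist4h4 (0.26, adjusted p = 0.918). The first of them (chr13:23559215-23559647) had 160, 137 and 172 normalised tags in oil and 139, 223 and 233 in tamoxifen. There tamoxifen replicate 1 lay within the oil range and the other 2 above it. The pseudogene peak of Hist1h2al, left out by its mean of 27.3 normalised tags, had a larger difference (0.58 ± 0.37 SE, adjusted p = 0.735).

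The blocks differed in how far the libraries parted. On chromosome 13, the block at chr13:22032678-22046030, with 23 peaks of 5 genes, had library medians of -0.55, -0.52 and 0.19 in tamoxifen replicates 1, 3 and 4, and 13 of its 23 peaks were called lower without tamoxifen replicate 4 (56.5%). In the block at chr13:21713378-21832260 it was 17 of 68, and in the largest block 30 of 162 (18.5%). In the block at chr13:21713378-21832260 the 71 peaks that are not members had a median log2 difference of -0.18 over all libraries (53 below 0), against -0.15 for the 68 histone peaks there (59 below 0). In the largest block the 72 such peaks had -0.03 (39 below 0), against -0.11 for its histone peaks (119 of 162). On chromosome 3, the 44 Hist2 peaks (chr3:96216778-96269821) had a median of -0.04 over all libraries and 1 call without tamoxifen replicate 4, that of Hist2h2be.

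**Figure D5:**
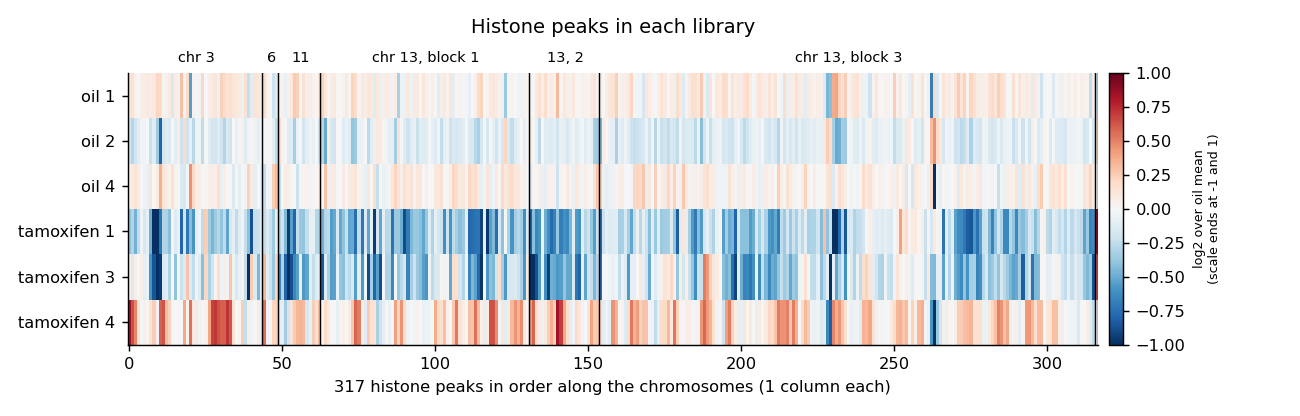
Log2 of normalised tags over the mean of the oil libraries (color scale, ends at -1 and 1) for the 317 histone peaks, 1 column each, in order along chromosomes 3, 6, 11 and 13, in the 6 libraries (rows); black lines separate the blocks. Tamoxifen replicates 1 and 3 are blue over long runs of neighbouring peaks in which tamoxifen replicate 4 is white or red, and oil replicate 2 is faintly blue in most columns.

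The small clusters were read at each gene. The 14 peaks of the 3 Hist3 genes on chromosome 11 (chr11:58948162-58957724) were all below 0, with a median of -0.18, and in 5 of them (35.7%, against 9.99% of all peaks) every tamoxifen library was below every oil library. The start of Hist3h2a was the most tagged of all histone peaks, with 1347, 1250 and 1249 normalised tags in oil and 1211, 1206 and 1220 in tamoxifen (-0.08 ± 0.07 SE, adjusted p = 0.864). The start of its neighbour Hist3h2ba had 321, 304 and 310 against 271, 251 and 291 (-0.20 ± 0.12 SE, adjusted p = 0.685), and the peak past the end of Hist3h2ba 94.9, 98.5 and 105.7 against 73.5, 56.8 and 78.2 (-0.52 ± 0.21 SE, adjusted p = 0.325). In the pseudogene Hist3h2bb-ps the values were 228, 205 and 226 against 187, 153 and 195. In all 4 the tamoxifen libraries, replicate 4 included, were below the oil libraries, yet DESeq2 called 0 of the 14 peaks with or without tamoxifen replicate 4, and edgeR called 0 of all 317. At an unadjusted p under 0.05, 3 of the 14 Hist3 peaks (21.4%) were lower with all libraries, against 2.84% of all peaks. Without tamoxifen replicate 4 it was 7 of the 14, against 5.91% of all peaks. The only Hist4 gene, Hist4h4, had 1052, 1063 and 1029 normalised tags at its start in oil and 899, 901 and 1060 in tamoxifen (-0.14 ± 0.08 SE, adjusted p = 0.695), with tamoxifen replicate 4 again within the oil range.

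Genes that act on histone genes or with their products had median differences close to 0. NPAT, the S-phase coactivator, HINFP, which binds H4 promoters, CASP8AP2 (FLASH), which works in histone mRNA 3′ processing, and SLBP, which binds the stem-loop, had start peaks with log2 differences of 0.01, 0.01, 0.04 and -0.04. At the Npat start the normalised tags were 695, 656 and 605 in oil and 675, 695 and 605 in tamoxifen, so that the groups overlapped. Of 63 peaks of 20 genes of histone mRNA transcription and processing 0 were called (median 0.0065), of 37 peaks of 10 replication-independent histone genes 0 (-0.0092), and of 44 peaks of 13 histone chaperone genes 0 (-0.02). At an unadjusted p under 0.05 DESeq2 gave 1, 1 and 2 lower peaks in these lists (1.59%, 2.70% and 4.55%) and 0 higher ones. Among all peaks 1.39% were called, and at that p 2.84% were lower and 6.18% higher. Of 84 peaks of 20 S-phase and E2F genes 1 was called lower, a peak at position -1011 bp from the start of Cdt1, which licenses replication origins (474, 424 and 487 normalised tags in oil and 311, 285 and 399 in tamoxifen; log2 -0.47 ± 0.12 SE, adjusted p = 0.015). The peak at the Cdt1 start had a log2 difference of -0.01. The S-phase list had a median of -0.04, with 59 of 84 peaks below 0. At an unadjusted p under 0.05 DESeq2 gave 3 lower peaks in it (3.57%) and 0 higher ones. In 14 of its peaks (16.7%) every tamoxifen library was below every oil library, against 9.99% of all peaks. That share was 12.7%, 10.8% and 15.9% in the lists of mRNA processing, replication-independent histone and chaperone genes. Over these 4 lists together edgeR called 2 peaks, and DESeq2 without tamoxifen replicate 4 called 3. In that DESeq2 fit 1.43% of all peaks were called lower and 2.29% higher. The summed level of the S-phase list was 1104 to 1152 tags per 1000000 tags in peaks in oil. It was 1080, 1091 and 1072 in tamoxifen replicates 1, 3 and 4, so that every tamoxifen library was below the oil libraries. The histone sum did not separate the groups in this way, and the part of these genes in the histone values was not tested.

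The labelled cells had the accessible genes of leukemia progenitors, with 32 peaks at all 5 markers (Kit, Runx1, Myb, Cd34 and Spi1), of which the Cd34 start was called higher after tamoxifen (73.9, 92.6 and 117 normalised tags in oil and 265, 332 and 212 in tamoxifen; log2 1.50, adjusted p = 8.3e-12). Markers of T, B and mature myeloid cells were low: 2 of 4 T-cell genes (not Cd3d and Cd8a), 2 of 4 B-cell genes (not Pax5 and Ms4a1) and 1 of 4 mature myeloid genes (not S100a8, S100a9 and Ltf) had any peak. Their peaks had median levels of 8.39, 6.88 and 6.19, against 26.6 for progenitor markers. Summed levels per 1000000 tags in peaks were 21.02 to 28.4 for T-cell, 23.4 to 32.6 for B-cell and 2.40 to 4.00 for mature myeloid markers over all libraries, and the groups overlapped. All 4 erythroid markers had peaks, 17 in all, at 176 to 185 in oil and 160 to 168 in tamoxifen, and 1 of them, of the red-cell anion exchanger gene Slc4a1, was called lower (log2 -0.71, adjusted p = 0.030). The median level of the erythroid peaks was 21.5, near that of the progenitor markers. The erythroid sum was below the oil libraries in all 3 tamoxifen libraries, which the histone sum was not; its part in the histone values was not tested.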

How the data were processed

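ATAC-seq was measured in 6 libraries, 3 per group, sorted at day 3 of the injections; SD and n refer to libraries, since the sources disagree on how many mice the ATAC-seq libraries of a group represent. According to the methods and the submitters' processing notes, the authors mapped reads to mm10 with Bowtie2, called and merged peaks with HOMER, and quantified every peak. The deposited values are estimated counts of tags, in steps of 0.5, without normalisation and with at most 3 tags per position, which caps the highest peaks. All value columns were matched to a sample. The members and gene lists were chosen with earlier results of these data known.

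Tags were rounded to whole numbers and all 175929 peaks were fitted with DESeq2 1.42.0 in R 4.3.3 (median-of-ratios size factors, Wald test, two-sided, Benjamini-Hochberg adjustment over all peaks, threshold 0.05), after the code was tested on simulated data. The median histone peak held 152 to 260.5 tags per library. Start sites, lengths and sequences came from RefSeq (GRCm38.p6), matched by gene ID for all 62 genes; 69.1% of the 317 deposited distances lay within 2 bp of the RefSeq start. Named peaks were the 5 largest rises and falls with a mean of at least 30 normalised tags, the genes with the highest and lowest level in each class, testis-type genes, and Hist3 and Hist4 genes; no histone peak passed the threshold. Other peaks were named after their values were seen.

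Alternatives were edgeR 4.0.16 (quasi-likelihood test), other size factors, intensity-dependent and GC-dependent offsets (the last added after seeing the data), a filter at a mean of 10 tags, a fit of peaks within 3000 bp alone, members within 1000 bp, a replicate block, and leaving out each library.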

Additional observations from a re-analysis of the deposited data

How the results depend on the processing

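The count of histone peaks at an adjusted p under 0.05 was 0 under every alternative but the library left out: without 1 library it ran from 0 to 61, the 61 being reached without tamoxifen replicate 4 alone, and at a fold over 2 in addition from 0 to 2. The median log2 change (-0.11) stayed below 0 throughout, from -0.27 without tamoxifen replicate 4 to -0.05 without tamoxifen replicate 1. GC-dependent offsets left it at -0.11, and the fit of peaks within 3000 bp alone moved it to -0.09. The difference in the histone share of tags (-8.68%) stayed negative, and per 1000000 tags of the whole library it was -7.15%.

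Both groups have a replicate 1 and a replicate 4, which no label ties together, and the deviations of same-numbered libraries correlated at -0.044 and 0.051 over all peaks. The replicate block on these 4 libraries gave 0 histone peaks and a median of -0.13, and 0 calls in the lists of related genes and of markers.

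The lists of related genes had 1 call in the main fit, 2 with edgeR, 0 with intensity-dependent offsets, 0 in the fit of peaks within 3000 bp alone, and 0 to 3 without 1 library (3 without tamoxifen replicate 4, 1 without oil replicate 2 and 0 without each of the others). The Cdt1 call is thus not stable. Marker lists had 2 calls, and 1 to 2 without 1 library. Among named peaks, log2 changes near 0 changed sign. These were Hist1h4c (-0.0053 with size factors from tags in peaks, -0.0066 with GC-dependent offsets, -0.043 with the replicate block, and -0.044 to 0.044 without 1 library), Hist1h4n (0.017 in the fit of peaks within 3000 bp alone and -0.053 to 0.062 without 1 library), Hist2h2ac (-0.079 to 0.0051 without 1 library) and Hist1h1t (-0.0026 to 0.12 without 1 library). The cause was not tested. As to depth, the median histone peak held 152 to 260.5 tags per library, and the median of all peaks 45 to 57.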
